A study of Bos taurus with 12 samples.

Results

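The data compare the endometrium, the lining of the uterus, between the 2 extremes of blood progesterone found in grazing dairy cows (Bos taurus), sampled on day 4 of their cycle. The comparison takes the 3 biopsies labelled very high (above 20 ng/ml) and the 3 labelled very low (below 0.25 ng/ml), 6 of the 12 libraries of the series, and all genes in them. The other 6 libraries, 3 labelled high (above 2.5 ng/ml) and 3 labelled low (below 1.4, in mg/dl by their label), enter the fit and serve for comparison. All samples are described as endometrial biopsies of the same day, and no other treatment, breed or age is given. Titles mark the very low samples ANE and the very high ones SO. These letters are not explained, so any further difference between those animals cannot be told apart from progesterone. The labels leave unsaid whether the 3 samples of a class come from 3 animals, and p-values here measure only the spread among samples, which may be technical.

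Progesterone is made by the corpus luteum after ovulation and acts on the uterus through its nuclear receptor, PGR, a transcription factor of stroma, glands and muscle. It turns the lining from growth, which estrogen drives, to secretion, and it prepares the fluid in which an early embryo lives. In cattle it also holds down the receptor for oxytocin, the hormone that starts the release of prostaglandin F2α and the end of the cycle.

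In the very high class 122 of 10959 tested genes were higher than in the very low class (1.11% of tested genes) and 45 were lower (0.411%), 167 in all (1.52%), by edgeR's quasi-likelihood test at a Benjamini-Hochberg adjusted p of 0.05. The higher genes were led by the opioid precursor PENK, the protease MEP1B and the esterase CES4A, and 21 of the 122 had a mean under 1 CPM in the very low class, where 1.9% of all tested genes did. A gene so low there passes the low-count filter only through other classes, and the call used the same values. The filter and the call therefore fix part of that excess. CPM are counts scaled to a common library size by the TMM method. The lower genes were led by the epithelial genes TNS4, UPK1B and MSLN and by OXTR, the oxytocin receptor. Fold changes are log2 values of very high over very low. Their median was 2.41 among the higher genes and -1.97 among the lower ones, against -0.12 over all tested genes. In all 167 called genes the CPM of the 2 classes did not overlap, which held for 25.7% of tested genes.

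**Figure D1:**
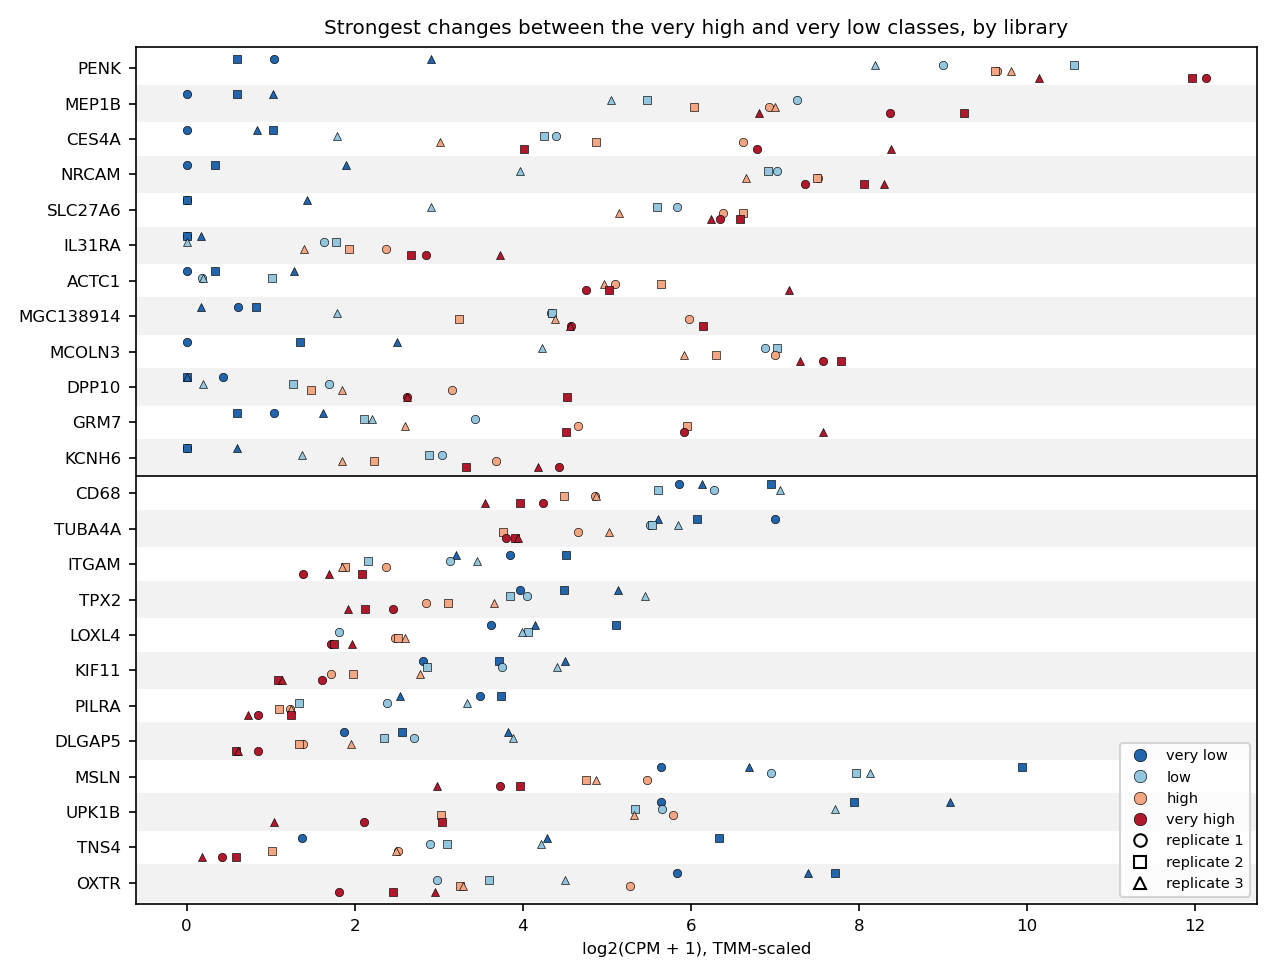
The 12 strongest higher and 12 strongest lower genes between the very high and very low classes are plotted by library, as log2(CPM + 1) on the horizontal axis, with a colour for each class and a symbol for each replicate. In the upper 12 genes the 3 very low libraries sit left of the 3 very high ones, and in ACTC1 the low libraries lie beside the very low. In the lower 12 the very high libraries sit left of the very low ones.

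The adjusted p of the 167 genes lay between 0.0269 and 0.0493, so each call was near the threshold. The count was 0 when very high replicate 1 or 2 was dropped, 2 when very high replicate 3 was, 1 for very low replicate 2 and 17 for high replicate 3. It was 0 when only these 6 libraries were fitted, 1 in limma-voom, 643 without very low replicate 1 and 1510 in DESeq2. The sign stayed the same in every alternative that tested them for 166 of the 167 genes. Since the 2 classes did not overlap in any called gene, the choice of genes fixes much of that count. The same share over all tested genes is not given.

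Cell type marker levels spread more widely over the very low libraries than over the very high ones. In the plot of cell type markers a library's score for a list is the mean, over tested members, of log2 CPM. Smooth muscle, the wall beneath the endometrium, scored 11.41, 4.83 and 6.08 in very low replicates 1, 2 and 3, and 9.06 to 10.09 in the very high libraries. Epithelial markers, which define the surface and glands, scored 3.41, 8.33 and 7.14 against 6.60 to 6.86. Stromal markers were present throughout, at 7.41 to 10.20 and 8.65 to 9.29. Very low replicate 1 thus had the most muscle marker RNA and the least epithelial marker RNA of these 6, and FOXJ1, the defining factor of ciliated cells, had 0 reads in it. Its ciliated score was 1.32, against 3.69 to 4.91 in the very high libraries. Not every ciliated marker was low in it, since DNAI1 had 1470 reads and TPPP3 1417. Neutrophil markers were highest in very low replicate 2 (8.15, against 3.15 to 4.02 in the very high class). In such bulk samples, fewer cells of a type and less RNA per cell cannot be told apart. With the smooth muscle score alone as a covariate 1808 genes were called, 1045 higher and 763 lower. With the muscle and epithelial scores together no gene was called, although 1351 had an unadjusted p under 0.05, and the medians of the 122 higher and 45 lower genes became 2.48 and -1.29.

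**Figure D2:**
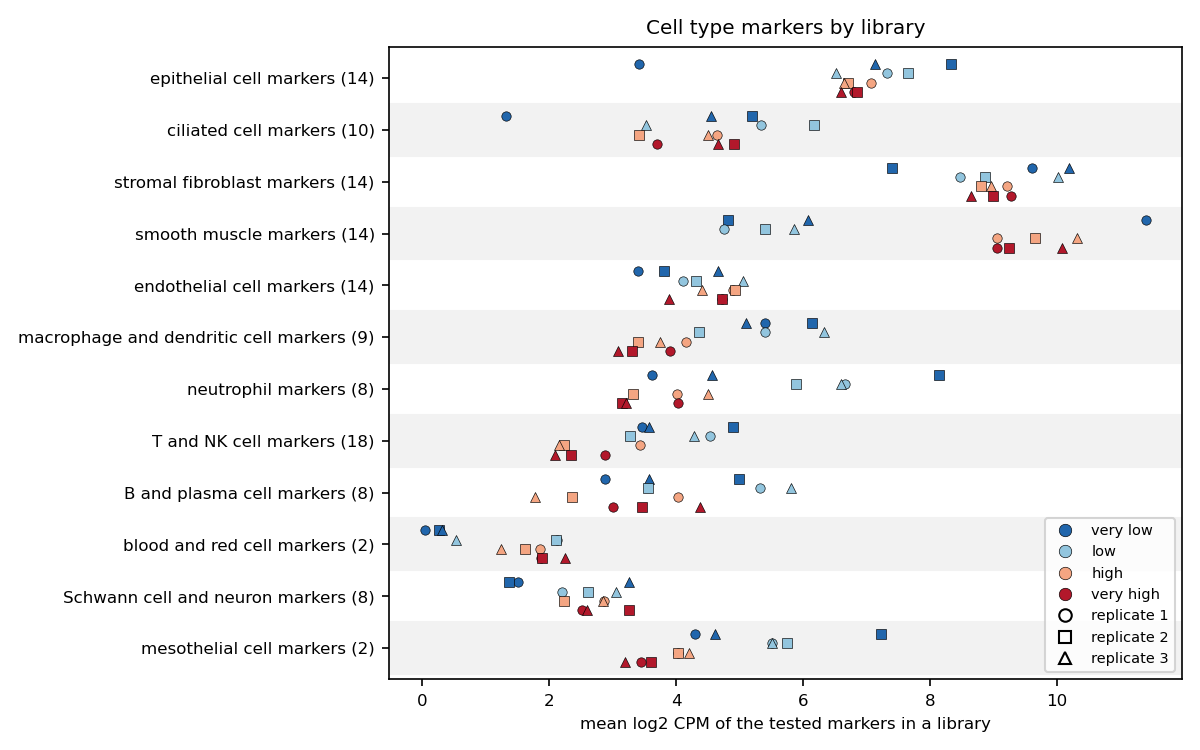
Mean log2 CPM of the tested markers of 12 cell types in each library, with the number of tested markers in brackets, a colour for each class and a symbol for each replicate. Very low replicate 1 has the highest smooth muscle score (11.41) and the lowest epithelial one (3.41), and the very high libraries lie close together in most lists.

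Among steroid hormone receptors and the genes that steroids switch on, 3 genes rose. Beside this and the later list counts, 1.11% of all tested genes were called higher and 0.411% lower. The lists were chosen with earlier results of these data known. Of 15 tested receptors and co-chaperones 1 rose, FKBP5, a co-chaperone that damps steroid receptors and is itself switched on by them. It had 85.7, 98.1 and 70.1 CPM in very low replicates 1 to 3 and 286, 197 and 316 CPM in the very high ones (log2 1.65, SE 0.30, edgeR adjusted p = 0.0365). PGR itself had 62.2, 34.1 and 70.3 CPM against 20, 25.1 and 27.6 CPM, and ESR1, the estrogen receptor alpha, had 106, 151 and 40.7 against 21.5, 29.8 and 49.2 CPM. For both receptors every very low library except ESR1 in replicate 3 lay above all very high libraries, and neither passed (edgeR adjusted p = 0.0561 and 0.149). Of 20 tested genes known to be induced by steroid hormones, 3 rose and none fell. KLF15, a zinc finger factor of metabolic control that glucocorticoids and progesterone induce, had the smallest spread of the 3 in the very high class, with 6.01, 11.4 and 7.41 CPM in the very low and 43.1, 42.9 and 48.3 CPM in the very high libraries (log2 2.45, SE 0.30, edgeR adjusted p = 0.0269). TSC22D3, also called GILZ, a leucine zipper protein induced by glucocorticoids, had 35.4, 149 and 112 against 686, 485 and 732 CPM (log2 2.68, edgeR adjusted p = 0.0399). In 8 of the 20 genes every very high library lay above every very low one, against 13.4% of all tested genes, and in none did every one lie below. The median of this list was 0.09, with members such as DUSP1 at -0.85 and SPP1 at -2.35. It ranged from 0.00 to 0.42 when 1 very low library was dropped (replicate 3 and replicate 2), and was 1.23 with the muscle score and 1.01 with both scores as covariates.

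Peptide ligands and secretory granule proteins held the strongest change of the comparison. PENK, the precursor of the enkephalin opioid peptides, had 1.06, 0.516 and 6.5 CPM in the very low libraries and 4482, 4008 and 1132 CPM in the very high ones (log2 10.13, SE 1.20, edgeR adjusted p = 0.0269). The low and high classes, which played no part in the contrast, had 512, 1511 and 291 and 799, 786 and 899.7 CPM, so the very low class stood alone. CHGA, chromogranin A of dense-core secretory granules, had 4.24, 1.03 and 1.95 against 102, 127 and 53.6 CPM (log2 5.25, edgeR adjusted p = 0.0309). Here the class means formed steps, with 6.46, 13.1 and 3.33 CPM in the low and 18, 39.8 and 61.9 CPM in the high libraries, although the low range reached into the very low one. The other 14 tested members of this list did not pass. Among them the granule protein SCG2 had a log2 value of 4.13 and the opioid precursor PDYN one of 2.75. The peptides NPY and NTS had values of -5.65 and -5.47, each with its highest level in 1 very low library (104 CPM of NPY in replicate 3 and 597 CPM of NTS in replicate 2).

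In the oxytocin and prostaglandin pathway the receptor fell and enzymes rose. OXTR had 56.2, 209 and 167 CPM in the very low libraries and 2.52, 4.49 and 6.73 CPM in the very high ones (log2 -4.98, SE 0.81, edgeR adjusted p = 0.0333). The muscle-rich very low replicate 1 had the lowest OXTR of its class. AKR1B1, an aldo-keto reductase that makes prostaglandin F2α in the bovine endometrium, had 101, 58.3 and 159 against 548, 702 and 506 CPM (log2 2.46, edgeR adjusted p = 0.0374). HPGD, the dehydrogenase that inactivates prostaglandins, had 6.72, 19.4 and 69.8 against 433, 497 and 358 CPM (log2 3.74, edgeR adjusted p = 0.042). For both enzymes the low class overlapped the very high one, with 764, 486 and 247 CPM of AKR1B1 and 619, 388 and 266 CPM of HPGD. These were 3 of 18 tested members. PTGES, the synthase of prostaglandin E2, had 10.1, 133 and 37.4 against 3.43, 1.25 and 3.03 CPM and did not pass (edgeR adjusted p = 0.0568), and the median of the list was -0.33. It was 0.11 without very low replicate 2 and 0.35 with muscle and epithelial scores as covariates, so its sign turned in both.

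Growth factor ligands changed in both directions. Of 41 tested WNT, BMP, TGF-beta and IGF genes 2 rose and 1 fell, against 1.11% and 0.411% of all tested genes. WNT11, a ligand of noncanonical WNT signalling, had 3, 1.81 and 8.19 CPM in the very low and 50.2, 73.2 and 30.1 CPM in the very high libraries (log2 3.51, edgeR adjusted p = 0.0399). BMP4, a ligand of the bone morphogenetic protein family, had 32.2, 15.5 and 41.6 against 187, 122 and 92.2 CPM (log2 2.16, edgeR adjusted p = 0.0365). TGFB2, a transforming growth factor beta, had 22.6, 52.9 and 33.5 against 7.32, 4.36 and 9.5 CPM (log2 -2.36, edgeR adjusted p = 0.036). The secreted WNT inhibitor DKK1, with 0.177, 0.774 and 2.21 against 67.7, 32.5 and 9.37 CPM, and the IGF binding protein IGFBP1, with 0.177, 0.516 and 0.65 against 15, 7.85 and 30.1 CPM, were at most 2.21 and 0.65 CPM in the very low class and did not pass (edgeR adjusted p = 0.0568 and 0.0731). No HOX gene or other developmental factor passed among 21 tested, of which 14 had negative values. Their median was -0.31, and -0.14 without very low replicate 1. The one with the smallest p was GLI1, the transcription factor and readout of hedgehog signalling, with 1.77, 5.16 and 17.4 against 48.9, 30.4 and 42 CPM (edgeR adjusted p = 0.0763). The hedgehog receptor PTCH1 had 1.41, 11.6 and 10 against 28.4, 31.3 and 51 CPM and the ligand IHH, which progesterone induces in uterine epithelium, had 0.353, 1.29 and 64.9 against 169, 75.7 and 243 CPM, neither past the threshold (edgeR adjusted p = 0.104 and 0.22).

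Enzymes of oxidation and ester cleavage formed the list with the most rises, 5 of 37 tested members, against 1.11% of all tested genes. None fell, and the list median was 0.30. The list was chosen with earlier results of these data known, so its rank is only a description. CES4A, a carboxylesterase, had 0, 1.03 and 0.78 CPM in the very low libraries and 109, 15.2 and 331 CPM in the very high ones (log2 7.98, SE 1.63, edgeR adjusted p = 0.042), a spread within the very high class of more than an order of magnitude. CYP39A1, a hydroxylase of oxysterols, had 20.3, 20.6 and 32.5 against 461, 881 and 192 CPM (log2 4.38, edgeR adjusted p = 0.0365). Several rises were of flavin monooxygenases, which oxidize nitrogen and sulfur in drugs and amines. FMO2 had 0.177, 1.29 and 1.69 against 25.5, 37.5 and 19.7 CPM (log2 4.67, edgeR adjusted p = 0.0309) and FMO4 had 16.4, 17.8 and 14.3 against 127, 232 and 114 CPM (log2 3.29, edgeR adjusted p = 0.0333). FMO1, looked up after its values were seen, also rose, at a low level of at most 8.48 CPM (log2 4.30). FMO5 had a log2 fold change of -0.29 and did not pass. UGT1A1, a glucuronosyltransferase whose locus shares exons with its relatives, had 0.707, 2.32 and 31.5 against 200.1, 227 and 177 CPM and missed the threshold (edgeR adjusted p = 0.0689).

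Of 35 tested proteases and inhibitors 2 rose (against 1.11% of all tested genes) and none fell, while the list median was -0.89. MEP1B, the beta subunit of the membrane protease meprin, had 0, 0.516 and 1.04 CPM in the very low and 328, 607 and 111 CPM in the very high libraries (log2 9.24, SE 1.11, edgeR adjusted p = 0.0269). As for PENK, the very low class lay below all other libraries, since the low libraries had 153, 43.6 and 32 and the high ones 121, 64.8 and 127 CPM. TIMP2, an inhibitor of matrix metalloproteinases, had 622, 655 and 434 against 2123, 2507 and 1436 CPM (log2 1.83, edgeR adjusted p = 0.0476). Of the 35, 27 had negative values, among them the lysosomal protease CTSC at 143, 391 and 185 against 64.4, 48.4 and 33.8 CPM and the plasminogen activator PLAU at 34.8, 93.2 and 87.3 against 13.5, 9.47 and 14.2 CPM, which did not pass (edgeR adjusted p = 0.0719 and 0.0758). The list median was -0.35 without very low replicate 2 and 0.90 with muscle and epithelial scores as covariates.

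Transport and lipid genes gave few but large differences. SLC27A6, a fatty acid transport protein, had 0, 0 and 1.69 CPM in the very low and 80.2, 95.2 and 74.8 CPM in the very high libraries (log2 6.89, SE 1.10, edgeR adjusted p = 0.0333), whereas its tested relatives SLC27A1 and SLC27A4 had log2 values of 0.22 and 0.35 and did not pass. Of 49 tested nutrient and ion transporters, 2 rose and 1 fell. The glutamine carriers among them went in opposite directions. SLC38A7 had 14.7, 23.5 and 25.5 against 84.2, 108 and 98.5 CPM (log2 2.19, edgeR adjusted p = 0.0365), and SLC1A5 had 23.3, 73.3 and 41.5 against 9.04, 8.97 and 8.84 CPM (log2 -2.36, edgeR adjusted p = 0.0365). ACACA, the acetyl-CoA carboxylase that commits carbon to fatty acid synthesis, was the called member of 28 fatty acid and sterol synthesis genes, with 31.8, 36.1 and 19.5 against 142, 314 and 146 CPM (log2 2.79, edgeR adjusted p = 0.0426). FASN, the next enzyme of that path, had 80.1, 124 and 108 against 125, 221 and 123 CPM, an overlap, and did not pass (edgeR adjusted p = 0.323). Of 26 genes of fatty acid uptake, oxidation and storage, SLC27A6 was the 1 that passed. DGAT2, the last enzyme of triglyceride synthesis, had 2.65, 48.8 and 6.24 against 189, 314 and 51.5 CPM (edgeR adjusted p = 0.109).

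NRCAM, a neuronal cell adhesion molecule of the immunoglobulin family, had 0, 0.258 and 2.73 CPM in the very low and 163, 266 and 312 CPM in the very high libraries (log2 7.74, SE 1.13, edgeR adjusted p = 0.0309). Of 23 tested neural adhesion and guidance genes it was the 1 that rose. CADM1, a cell adhesion molecule of epithelia and synapses, was the 1 that fell, from 10.1, 25.6 and 12.6 to 2.98, 4.24 and 5.28 CPM (log2 -1.94, edgeR adjusted p = 0.0476). MCOLN3, a cation channel of endosomes and lysosomes, had 0, 1.55 and 4.68 against 189, 219 and 156 CPM (log2 6.41, edgeR adjusted p = 0.0333). Its relative MCOLN2 also rose, from 4.42, 15.5 and 10.9 to 65.9, 119.8 and 69.5 CPM, and MCOLN1 did not pass, with 43.3, 47 and 38.1 and 60, 65.6 and 47 CPM (both looked up after MCOLN3 was seen). GRM7, a metabotropic glutamate receptor, had 1.06, 0.516 and 2.08 against 59.4, 21.8 and 189.8 CPM (log2 6.10). The potassium channel KCNH6 had 0, 0 and 0.52 against 20.6, 8.97 and 17.1 CPM (log2 6.08), with edgeR adjusted p of 0.0374 for GRM7 and 0.0365 for KCNH6. DPP10, a partner of potassium channels, rested on 2 reads in the whole very low class against 261 in the very high class, a ratio per scaled library of 92.3 with an exact 95% interval of 25.3 to 767 for counting error only. The cytokine receptor subunit IL31RA likewise had 1 read against 190, a ratio of 134 (23.8 to 5338). Both passed (edgeR adjusted p = 0.0489 and 0.0399). MGC138914, known only by a clone name, had 0.53, 0.774 and 0.13 against 22.9, 69.5 and 22.7 CPM (log2 6.43, edgeR adjusted p = 0.0366).

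ACTC1, the cardiac form of alpha actin, was called higher while no smooth muscle marker was. It had 0, 0.258 and 1.43 CPM in the very low libraries and 25.9, 31.7 and 143 CPM in the very high ones (log2 6.67, SE 1.08, edgeR adjusted p = 0.0333). The low libraries had 0.132, 1.02 and 0.145 CPM and the high ones 33.3, 49.2 and 30.1 CPM, so the high and very high classes stood together. None of the 14 tested smooth muscle markers passed, and ACTA2, the smooth muscle alpha actin, had 26590, 119 and 406 against 4325, 4766 and 9007 CPM. Very low replicate 1, with the most ACTA2, had no ACTC1 read. The smooth muscle score was 11.41, 4.83 and 6.08 in the very low and 9.06 to 10.09 in the very high libraries. It was 4.76 to 5.86 in the low and 9.07 to 10.32 in the high libraries, where ACTC1 differed in the same direction. The part of muscle content was not tested. The muscle gene MYL4, looked up after ACTC1 was seen, also rose (log2 4.06, edgeR adjusted p = 0.0374), and had a high over low value of 4.94. Actins share most of their coding sequence, and how the authors assigned shared reads is not given in the sources used here, so the ACTC1 level is uncertain.

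**Figure D3:**
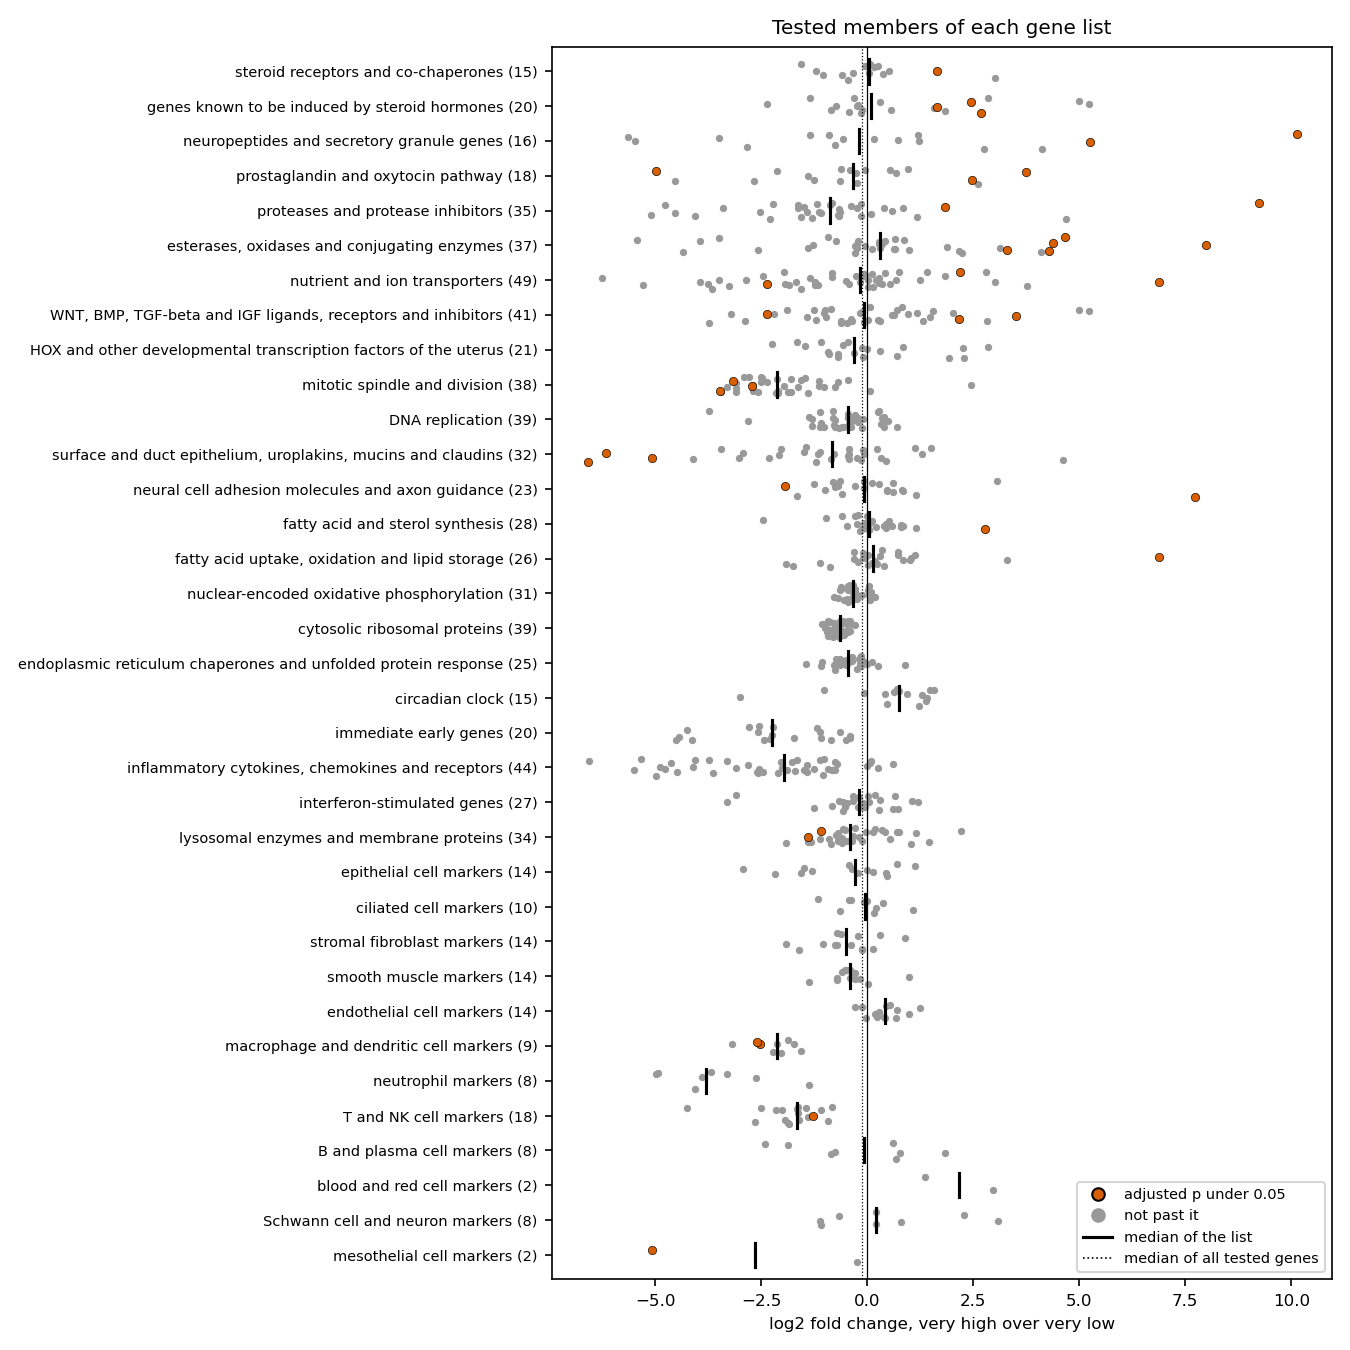
Log2 fold change of very high over very low for each tested member of 35 gene lists, with the number tested in brackets. Orange points passed an adjusted p of 0.05, a bar marks each list's median and the dotted line the median of all tested genes. The medians of the mitotic, immediate early, inflammatory, macrophage, neutrophil and T and NK cell lists lie left of 0. All ribosomal protein genes lie left of 0, most lists straddle it, and the far right holds single genes such as PENK and MEP1B.

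Among the genes that fell, those of surface epithelium had the largest differences. TNS4, a tensin of focal adhesions, had 1.59, 79.8 and 18.6 CPM in the very low and 0.343, 0.499 and 0.132 CPM in the very high libraries (log2 -6.59, SE 1.34, edgeR adjusted p = 0.042). UPK1B, a uroplakin of barrier membranes, had 49.1, 246 and 540.4 against 3.32, 7.23 and 1.05 CPM (log2 -6.16, edgeR adjusted p = 0.0399). MSLN, mesothelin, a surface protein of mesothelium and some epithelia, had 49.1, 979 and 103 against 12.2, 14.6 and 6.86 CPM (log2 -5.06, edgeR adjusted p = 0.0415). These were 3 of 32 tested members of the list, of which none rose, and the median was -0.83. Each varied 10-fold or more within the very low class, and the median was 0.29 without very low replicate 2 and 0.61 with muscle score alone as covariate. The keratin KRT7 had 22.1, 758 and 498 against 33.5, 19.4 and 21.1 CPM and did not pass (edgeR adjusted p = 0.0561). The tight junction claudin CLDN8 lay the other way, at 0, 12.7 and 7.54 against 128, 163 and 193 CPM, also short of the threshold (edgeR adjusted p = 0.0617). KRT19 had the smallest p of the 14 tested general epithelial markers, 84.8, 1175 and 648 against 91, 87.6 and 70.8 CPM, and did not pass (edgeR adjusted p = 0.066). Across the very low libraries TNS4 and MSLN followed the order of the epithelial score, whose part in these differences was not tested. The other mesothelial marker tested, UPK3B, had 7.6, 23 and 5.59 against 9.15, 9.72 and 11.3 CPM.

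Among genes of cell division, 3 of 38 tested mitotic genes fell, against 0.411% of all tested genes, and none rose. TPX2, which builds spindle microtubules, had 14.7, 21.4 and 34.2 CPM in the very low and 4.46, 3.37 and 2.77 CPM in the very high libraries (log2 -2.72, edgeR adjusted p = 0.0383). The spindle motor KIF11 had 6.01, 12.1 and 21.6 against 2.06, 1.12 and 1.19 CPM (log2 -3.17, edgeR adjusted p = 0.0405). DLGAP5, a spindle assembly factor, had 2.65, 4.91 and 13.1 against 0.801, 0.499 and 0.528 CPM (log2 -3.47, edgeR adjusted p = 0.0458). In 28 of the 38 every very high library lay below every very low one, against 12.2% of all tested genes, and the median was -2.14. For each of the called genes the low class had higher means than the high class, 24 and 8.47 CPM for TPX2. None of 39 DNA replication genes passed. The replication list had a median of -0.45, and the S-phase factor E2F8 had its smallest p, with 0.884, 2.32 and 7.15 against 0.229, 0.125 and 0.396 CPM (edgeR adjusted p = 0.0617). The replication median was -0.17 without very low replicate 3. With the muscle and epithelial scores as covariates the mitotic median was -0.93 and the replication median 0.58.

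Among leukocyte genes, 2 of 9 tested macrophage and dendritic cell markers fell, against 0.411% of all tested genes, and none rose. The macrophage score was 5.11 to 6.14 in the very low and 3.09 to 3.91 in the very high libraries. CD68, a lysosomal protein of macrophages, had 57.1, 123 and 68.9 CPM in the very low and 18, 14.6 and 10.7 CPM in the very high libraries (log2 -2.52, edgeR adjusted p = 0.0333). ITGAM, an integrin of myeloid cells, had 13.4, 21.9 and 8.19 against 1.6, 3.24 and 2.24 CPM (log2 -2.61, edgeR adjusted p = 0.0415). In all 9 markers every very high library lay below every very low one, against 12.2% of all tested genes, and the median was -2.12. It was 0.87 with muscle and epithelial scores as covariates, so that fit turned its sign. PILRA, an inhibitory receptor of myeloid cells whose locus overlaps the tested gene ZCWPW1, had 10.2, 12.4 and 4.81 against 0.801, 1.37 and 0.66 CPM (log2 -3.25, edgeR adjusted p = 0.0424). Of 18 tested T and NK cell markers 1 fell, CD8B, a chain of the cytotoxic T cell co-receptor, with 18.9, 15.5 and 19.1 against 6.87, 6.98 and 8.31 CPM (log2 -1.27, edgeR adjusted p = 0.0482). The T and NK median of -1.64 also changed sign with both covariates, to 1.47. None of the 8 tested neutrophil markers passed. The neutrophil median went from -3.80 to -0.46 without very low replicate 2.

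Lysosomal genes fell in 2 of 34 tested cases, both with small spreads, where 0.411% of all tested genes fell. None was called higher. The list was mixed, with 11 positive and 23 negative values and a median of -0.41. In 7 of the 34 every very high library lay above every very low one, against 13.4% of all tested genes. In 10 every one lay below, against 12.2%. The lysosomal median was 0.34 with muscle and epithelial scores as covariates, a change of sign. GNPTAB, which marks enzymes for transport to the lysosome, had 44.4, 48 and 31.7 CPM in the very low and 16.4, 16.9 and 13.8 CPM in the very high libraries (log2 -1.39, SE 0.23, edgeR adjusted p = 0.0336). ATP6V1B2, a subunit of the proton pump, had 140.3, 166 and 134 against 73.5, 62.7 and 72.3 CPM (log2 -1.08, edgeR adjusted p = 0.0383). The macrophage markers moved with these 2 genes, and their part in the lysosomal result was not tested. Other strong falls were those of LOXL4, a matrix crosslinking oxidase, with 11.3, 33.6 and 16.6 against 2.29, 2.37 and 2.9 CPM (log2 -3.01, edgeR adjusted p = 0.0482), and of the alpha tubulin TUBA4A, with 128, 66.3 and 47.7 against 12.9, 14 and 14.4 CPM (log2 -2.55, edgeR adjusted p = 0.0333).

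Several lists held no called gene. All 20 tested immediate early genes had negative values, with a median of -2.23, and it was -0.88 without very low replicate 2 and -0.34 with muscle score alone as covariate. MYC, a growth regulator, had their smallest p, with 318, 72 and 85.1 against 29.4, 29 and 38.8 CPM (edgeR adjusted p = 0.0608). The 44 cytokine, chemokine and receptor genes had a median of -1.96, which went to -0.37 without very low replicate 2. CXCL5, a chemokine that attracts neutrophils, had 3.54, 630.1 and 99.7 against 12.5, 2.49 and 3.03 CPM (edgeR adjusted p = 0.0719). Of 15 clock genes 12 had positive values, against 42.4% of all tested genes, and the median was 0.76. It was 1.15 without very low replicate 2 and 0.19 with muscle and epithelial scores as covariates. In 8 of the 15 every very high library lay above every very low one, against 13.4% of all tested genes, and NPAS2, a partner of the core clock, had 13.6, 6.2 and 8.32 against 21.1, 29.7 and 23.5 CPM (edgeR adjusted p = 0.0563). All 39 ribosomal protein genes had negative values with a median of -0.65, but none had an unadjusted p under 0.05. RPL3 had 4741, 1126 and 1737 against 1240, 1165 and 1250 CPM, so very low replicate 1 stood alone, and the list median was -0.03 without it. Scaling by library totals alone moved the median of all tested genes by 0.21 on the log2 scale and the ribosomal median to -0.33. It turned the sign of the small medians of the neuropeptide, WNT and BMP, neural adhesion, smooth muscle, ciliated and B cell lists. Medians were -0.46 for endoplasmic reticulum chaperones, -0.33 for oxidative phosphorylation and -0.20 for interferon-stimulated genes. The chaperone median was -0.14 and the interferon median 0.45 without very low replicate 2, and the oxidative phosphorylation median was -0.04 without very low replicate 1. The smallest p among them belonged to P4HB, a disulfide isomerase with 1628, 1272 and 1057 against 626, 591 and 674 CPM, to the cytochrome oxidase subunit COX5A (log2 -0.79) and to the antiviral factor SAMD9 (log2 -3.31), and none passed (edgeR adjusted p = 0.0617, 0.11 and 0.11).

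The remaining cell type lists also held no called gene. Medians were 0.41 for endothelial, -0.04 for ciliated, -0.50 for stromal and -0.41 for smooth muscle markers, and -0.07 for B and plasma cells and 0.20 for Schwann cells and neurons. These medians moved with single very low libraries: the stromal one was 0.13 without replicate 3, the endothelial one 0.19 without replicate 1 and 0.98 without replicate 3. Without replicate 2 the ciliated median was 0.74 and the B and plasma cell median 0.93. The Schwann cell and neuron median was -0.26 without replicate 1. Without very low replicate 1 the smooth muscle median was 3.36. TEK, the angiopoietin receptor of endothelium, had 8.84, 11.9 and 26.9 against 37.8, 39.4 and 35.9 CPM (edgeR adjusted p = 0.0896). The glial calcium-binding protein S100B had 20.3, 8.78 and 83.3 against 178, 117 and 256 CPM (edgeR adjusted p = 0.0921). Of the blood markers HBA and AHSP had enough counts, and HBA, an alpha globin, had 0.353, 0.516 and 0.26 against 3.09, 2.37 and 3.3 CPM (edgeR adjusted p = 0.0515). The smallest p of the other lists belonged to SYNPO2 (0.376), THY1 (0.152), DNAI1 (0.468) and CR2 (0.116), all as edgeR adjusted p.

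**Figure D4:**
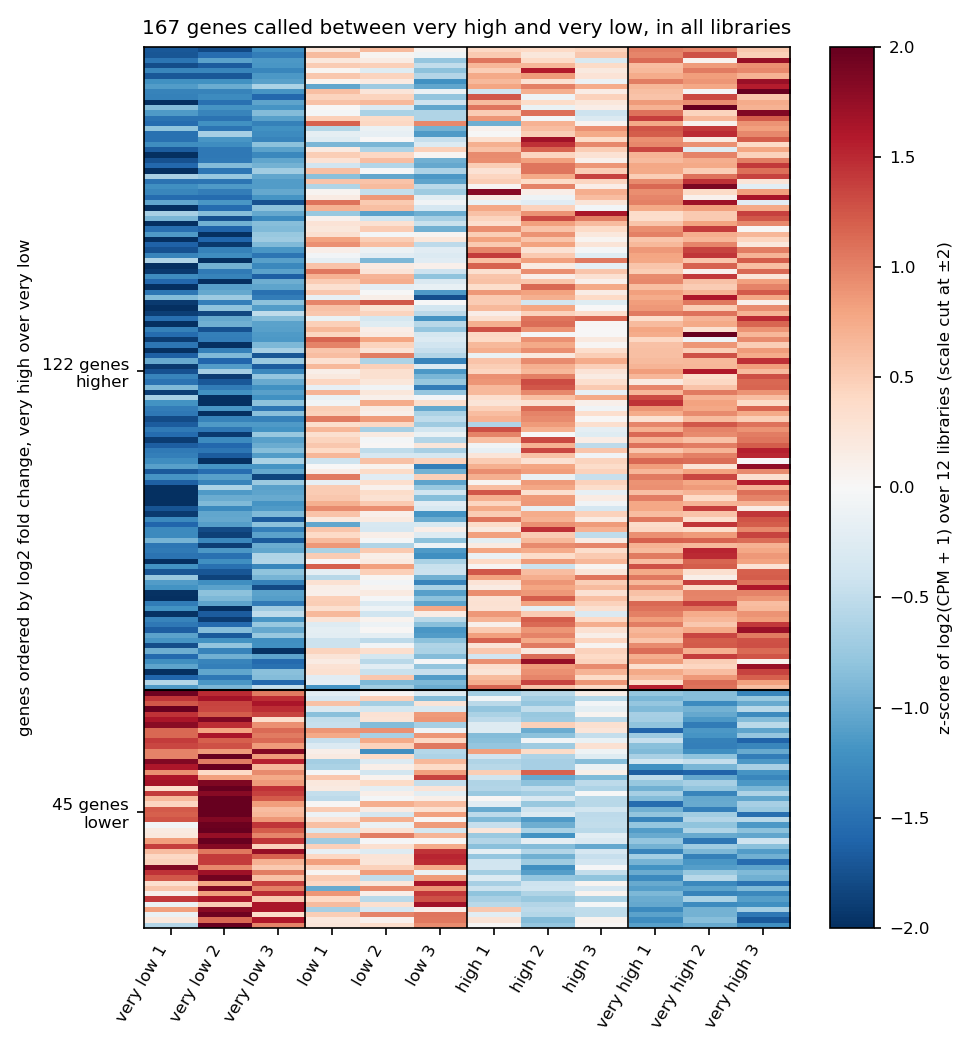
The 167 called genes in rows, ordered by log2 fold change, and the 12 libraries in columns, coloured by the z-score of log2(CPM + 1) of each gene over the libraries. The very low and very high columns differ because they chose the genes. The low and high columns took no part in the contrast but shared its estimate of the spread. In all 122 higher genes every high library lies on the very high side of every very low one. This held for 63.7% of the 1473 genes in which every very high library lay above every very low one. For the low libraries it held in 86 of the 122, against 29.0% of the 1473.

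The low and high classes can be set beside the extremes for the called genes. Their libraries did not enter the contrast, but they shared its estimate of the spread, and genes were called for wide and even separation. That choice fixes part of the shares given here, which are a description with no test. In 86 of the 122 higher genes every very low library lay below all 9 others (70.5%), against 23.5% of the 1473 genes in which every very high library lay above every very low one. In 13 of the 122 every very high library lay above all 9 others (10.7%, against 4.55%). The lower genes divided more evenly, with 21 of 45 where every very low library lay above all others (46.7%, against 14.9% of the 1341 genes with the very high class below) and 16 where every very high library lay below all others (35.6%, against 6.56%). PENK, MEP1B, HPGD and AKR1B1 belong to the first kind. For OXTR too the very low class stood alone, since the low and high libraries had 6.85, 11.1 and 21.7 and 37.8, 8.54 and 8.73 CPM. The 4 class means lay in 1 order from very low to very high in 123 of the 167 genes, among them CHGA and FKBP5. This held for 24% of all tested genes, and the choice of genes with well separated extremes fixes part of that order.

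The high and low classes give a comparison that shares no library with the extremes. High against low called no gene in edgeR (0.0% of tested genes, with 1125 or 10.3% at an unadjusted p under 0.05), and DESeq2 called 241. Of the 167 genes 147 had the same sign there (88.0%), against 64.2% of all tested genes, 106 of the 122 higher and 41 of the 45 lower ones. Of these 147, 48 had an unadjusted p under 0.05, and none of the 20 others did. The smooth muscle score differed between those classes, at 4.76 to 5.86 in the low and 9.07 to 10.32 in the high libraries, and with muscle and epithelial scores as covariates the share with the same sign was 68.9%. Without low replicate 3 it was 78.4%. The 64.2% of all tested genes belongs to the main fit, and its counterpart in these other fits is not given.

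**Figure D5:**
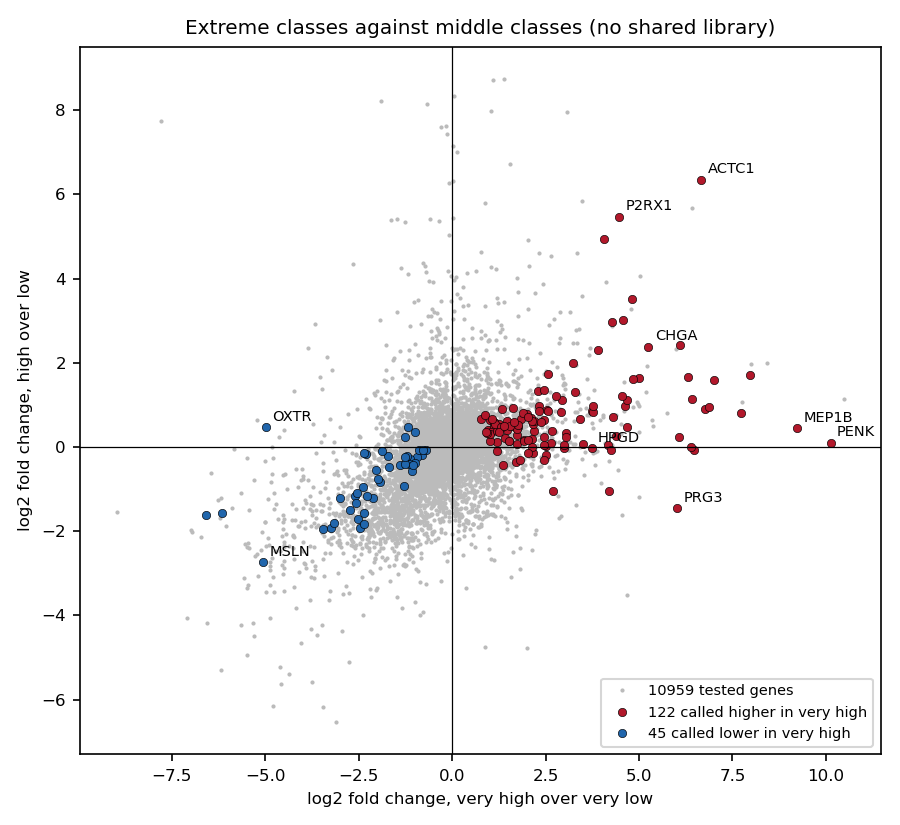
Log2 fold change of very high over very low (horizontal) and of high over low (vertical) for 10959 tested genes, with the 122 genes called higher in red and the 45 called lower in blue. The called genes spread along the horizontal axis, 147 of 167 with the same sign on both axes, and PENK, MEP1B and HPGD lie near 0 on the vertical one.

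Whether a gene differed more between the extremes than between the middle classes was tested as the difference of those contrasts. No gene passed in edgeR (0.0% called, lowest adjusted p 0.168, with 845 or 7.71% of tested genes at an unadjusted p under 0.05), and DESeq2 called 84. PENK had an extreme-class value of 10.13 beside 0.10 in the middle classes, and MEP1B 9.24 beside 0.45. OXTR had -4.98 beside 0.47. For ACTC1 the values were 6.67 and 6.35, and for MSLN -5.06 and -2.73. The difference had an edgeR adjusted p of 0.168 for PENK, 0.296 for OXTR and 0.965 for ACTC1, so none of these contrasts was shown to differ.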

How the data were processed

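Endometrial RNA of 12 samples was captured with oligo-dT, made into stranded TruSeq libraries and sequenced as paired reads in 1 pool, per the labels' protocols. FastQC 0.11.2, Trimmomatic 0.32 and the builds UMD3.1 and bosTau8 are named in the submitters' processing notes. Not given in the sources used here: the aligner, the counter, the strand setting and the annotation. Reads from genes that overlap may therefore be mixed. The authors deposited raw counts per gene symbol, 1 column per sample, and totals ran from 3772564 (very low replicate 2) to 8379489. Depth limits the precision of low genes, and intervals cover counting error only. Of 13930 symbols, 10959 passed filterByExpr (count minimum 10) and were tested with edgeR 4.0.16 in R 4.3.3, by a quasi-likelihood fit of 4 class means to 12 libraries after TMM scaling (8 residual degrees of freedom). The Benjamini-Hochberg adjustment ran over all tested genes. SE is the fitted log2 value divided by the root of its F statistic. Replicates of a class correlated at 0.961 to 0.976 (very high) and 0.738 to 0.877 (very low, Spearman, over genes), and no pair was alike within sampling noise (chi-square over its degrees of freedom, 22.1 to 288). All 167 called symbols matched the RefSeq gene table of ARS-UCD2.0, 163 by symbol and 4 by synonym.

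Named genes are PGR, ESR1, OXTR and FKBP5, the 12 highest and 12 lowest fold changes among called genes whose classes do not overlap and whose log2 CPM averages 1 or more, up to 4 called members of each of 35 lists, in lists with none the member with the smallest p, and the 5 genes that most set each very low library apart (at least 50 CPM). Some genes under this rule are not reported here. Other names are given as examples from the lists or are said to be chosen after their values were seen. The classes, lists and rule were chosen with earlier results of these data known. Alternatives covered normalization, filter, tool (DESeq2 1.42.0, limma-voom with limma 3.58.1), libraries in the fit, depth, replicate block, marker covariates and each library left out.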

Additional observations from a re-analysis of the deposited data

How the results depend on the processing

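The count of 167 genes became 181 with DESeq2 size factors in edgeR, 175 without a low-count filter, 196 with a count minimum of 30, 161 with robust empirical Bayes and 191 with libraries thinned to the smallest total. It was 45 with library totals only (42 higher and 3 lower, so 93.3% of calls were higher against 73.1%), 1510 in DESeq2, 1 in limma-voom, 0 with the 6 libraries alone (1823 genes with an unadjusted p under 0.05), 1808 with the smooth muscle score as covariate and 0 with smooth muscle and epithelial scores (1351 with an unadjusted p under 0.05). With 1 library left out it ran from 0 (very high replicate 1 or 2) to 643 (very low replicate 1), with 341 without low replicate 3, 324 without very low replicate 3, and 74, 52 and 17 when high replicate 1, 2 or 3 was dropped. The cause of these differences was not tested. No pairing of the samples by replicate number was seen, though with 3 libraries per class this check cannot exclude it. Same-numbered libraries of the 2 classes correlated at -0.05, 0.09 and -0.19 in their deviations from the class means. Not every sample correlated best with its own number. The fit with the number as a replicate block, which leaves fewer residual degrees of freedom, called 0 genes (2292 with an unadjusted p under 0.05). It called 0 genes for the other contrasts as well.

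High against low called 0 genes except in DESeq2 (241), with the smooth muscle score (39) and without very low replicate 1 (76), so left-out libraries gave 0 to 76. The difference of the contrasts called 0 except in DESeq2 (84) and without very low replicate 3 (2), so left-out libraries gave 0 to 2. The share with the same sign in both was 68.9% with smooth muscle and epithelial scores and 78.4% to 89.8% with 1 library left out. For these fits the share over all tested genes is not given. Of the named genes 1 changed direction past the threshold: PTGER3 had -2.66 with all libraries and 4.05 without very low replicate 1 (edgeR adjusted p = 0.045), in a range of -3.24 to 4.05 over left-out libraries. Among the 167, CBX3 went from -1.18 to 0.069 with smooth muscle and epithelial scores.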

Other observations

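Of the 167 called genes 132 stand in none of the lists, and the following were chosen after their values were seen. PHGDH, the first enzyme of serine synthesis, had 17.1, 38.7 and 104 CPM in the very low and 934, 1027 and 931 CPM in the very high libraries (log2 4.17, edgeR adjusted p = 0.0365). HIF3A, a subunit of hypoxia-inducible factor, had 6.01, 1.55 and 3.64 against 32.3, 39.9 and 97.9 CPM (log2 3.89). ADCY8, a calcium-stimulated adenylyl cyclase, had 0.53, 2.84 and 2.47 against 32.3, 31.2 and 74.5 CPM (log2 4.57), and PPP1R1B, the phosphatase inhibitor DARPP-32 of the cyclic AMP pathway, had 8.13, 5.16 and 14.6 against 87.3, 62 and 76.5 CPM (log2 3.00). The hedgehog-interacting protein HHIP had 0, 0.258 and 0.13 against 4.12, 2.12 and 5.28 CPM (log2 4.83), with 2 reads in the whole very low class. ECI2, an isomerase of fatty acid oxidation, had 79.5, 73.6 and 56.3 against 548, 825 and 298 CPM (log2 3.00). All 6 passed, at edgeR adjusted p from 0.0309 to 0.0365. AHR, the aryl hydrocarbon receptor, fell from 20.3, 92.4 and 40.6 to 8.35, 12 and 10.3 CPM (log2 -2.32, edgeR adjusted p = 0.0493). Some falls were small and even: G3BP1, a stress granule protein, went from 123, 104 and 108 to 58.5, 57.5 and 63.6 CPM (log2 -0.90, SE 0.14, edgeR adjusted p = 0.0333).

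Each very low library had transcripts that set it apart from the other libraries of the 2 classes. By the ratio to the highest of the other 5 libraries of the 2 classes, with 1 CPM added to both, very low replicate 1 was led by BAALC (118 CPM), the WNT inhibitor SFRP2 (3109 CPM), PCDH10, CD5L and the prostaglandin E receptor PTGER3 (249 CPM). Their ratios ran from 10.8 to 23.2. Very low replicate 2 was led by the beta-defensin DEFB13 (447 CPM), GP2, the lipopolysaccharide-binding protein LBP (387 CPM), the tracheal antimicrobial peptide TAP (1701 CPM) and PLEK, with ratios of 65.2 to 123. Beta-defensins such as DEFB13 and TAP are close copies, so their counts are uncertain. Very low replicate 3 was led by the neuropeptide NPY (104 CPM, ratio 51.7), then by the ligand WNT6, the collagen COL26A1, RARRES1 and the ligand WNT2 (ratios of 6.6 to 9.13). Several were also high in the low class. TAP had 2857 and 1297 CPM in low replicates 1 and 3, and RARRES1 had 2732 and WNT2 253 CPM in low replicate 3. DEFB13 had 280 CPM in low replicate 1 and GP2 512 CPM in low replicate 2. Others, among them BAALC and SFRP2, were far lower, at most 1.02 and 82.1 CPM in the low libraries. The genes describe single libraries within the 2 classes only, and none of them passed between the classes. Over all tested genes the median coefficient of variation was 40.1% among the very low and 16.8% among the very high libraries.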
